A study of Homo sapiens with 8 samples.

Results

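The regulatory factor X (RFX) genes encode transcription factors that share a winged-helix domain, and this domain reads a DNA element called the X-box. Its 8 numbered members and 2 cofactors were examined for binding by one of them, RFX7: RFX1, RFX2, RFX3, RFX4, RFX5, RFX6, RFX7, RFX8 and the cofactors RFXAP and RFXANK. All 10 symbols were matched among 20037 protein-coding genes of RefSeq GRCh38.p14. An interval of the RFX7 lists was assigned to a gene when its midpoint lay inside the gene or within 10 kb of either end. The rule lists the genes by name and uses no measured value, although the list was drawn up with earlier results of these data known.

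Binding of RFX7 was measured in U2OS, an established human osteosarcoma line, by ChIP-seq, in which DNA pulled down with an antibody is sequenced. Cells received 10 µM Nutlin-3a, which frees p53 from MDM2, or the DMSO solvent, both for 24 h, and 3 µg of RFX7 antibody went into each immunoprecipitation. Both treatments had 2 immunoprecipitated and 2 input samples, all from this one line, and the labels describe no genetic change in it. The files hold 1 merged list of intervals for each treatment, with 213 intervals after DMSO and 304 after Nutlin-3a, so no value below has a replicate error and no treatment difference could be tested.

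Members of the family differ in their roles and partners. RFX1, RFX2 and RFX3 are known for the control of genes of the cilium. RFX4 is known from brain and testis, and RFX6 from the development of pancreatic islets. RFX5 does not act alone: with RFXAP and RFXANK it forms the RFX complex, which binds the X-box of promoters of class II genes of the major histocompatibility complex (MHC). There it is joined by the CCAAT-binding factor NF-Y, by CREB proteins and by the coactivator CIITA. RFX7 is the family member most closely related to RFX5 and is known as a mediator of p53-dependent gene activation.

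A single gene of the family carried RFX7 intervals, and this was RFX5. The promoter of RFX5 was listed after DMSO and again after Nutlin-3a, at overlapping positions. RFX1, RFX2, RFX3, RFX4, RFX6, RFX8, RFXAP, RFXANK and RFX7 itself had 0 intervals in either list. The 1 of 10 genes stood beside a background of 0.319% of all protein-coding genes with an interval in the DMSO list (64 of 20037) and 1.33% in the Nutlin-3a list (266 of 20037). Only 0.105% of all genes (21 of 20037) had an interval in both lists, as RFX5 did. With 1 gene called, these shares are a description, and nothing was read from them about the family as a group.

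RefSeq gives 3 start sites for RFX5, each with a promoter window of 250 bases before and 50 bases after it (GRCh38.p14). The first 2 windows are shown because they lie under the RFX7 intervals and hold letters of an RFX half-site, which is one arm of an X-box. They run 5′ to 3′ in the direction of RFX5, which is on the minus strand. Capitals mark GTTACCA and AGCAAC in the first window, the latter being GTTGCT on the opposite strand, and GTTGCT in the second.
RFX5 window 1, chr1:151347203-151347502 (minus strand): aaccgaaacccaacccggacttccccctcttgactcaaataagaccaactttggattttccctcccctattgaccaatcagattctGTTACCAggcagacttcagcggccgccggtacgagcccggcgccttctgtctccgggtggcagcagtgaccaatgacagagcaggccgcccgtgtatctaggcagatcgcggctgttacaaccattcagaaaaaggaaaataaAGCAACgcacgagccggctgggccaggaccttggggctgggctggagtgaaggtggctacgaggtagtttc
RFX5 window 2, chr1:151346950-151347249 (minus strand): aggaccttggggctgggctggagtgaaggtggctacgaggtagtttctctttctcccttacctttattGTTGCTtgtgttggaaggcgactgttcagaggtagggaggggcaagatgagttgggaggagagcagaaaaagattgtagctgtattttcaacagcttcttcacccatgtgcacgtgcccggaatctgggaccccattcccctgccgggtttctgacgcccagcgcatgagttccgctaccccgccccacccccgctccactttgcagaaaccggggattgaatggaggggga

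For comparison, the following windows belong to family genes with 0 intervals. They were picked from the windows with such letters to show how the arms can be arranged: in RFX4, GTTGCCA meets its own reverse complement and forms a full X-box palindrome, in RFX1 a half-site on the opposite strand and one on the printed strand stand side by side and point away from each other, and in RFX7 there is a single half-site on the opposite strand. Capitals mark these letters.
RFX4 window 2, chr12:106600898-106601197 (plus strand): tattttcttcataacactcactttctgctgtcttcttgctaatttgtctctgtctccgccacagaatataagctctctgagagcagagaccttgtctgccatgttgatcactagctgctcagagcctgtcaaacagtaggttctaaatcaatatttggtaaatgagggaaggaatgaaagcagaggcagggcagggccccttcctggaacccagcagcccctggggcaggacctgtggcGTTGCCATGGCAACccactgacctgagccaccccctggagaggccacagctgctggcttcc
RFX1 window 1, chr19:14006271-14006570 (minus strand): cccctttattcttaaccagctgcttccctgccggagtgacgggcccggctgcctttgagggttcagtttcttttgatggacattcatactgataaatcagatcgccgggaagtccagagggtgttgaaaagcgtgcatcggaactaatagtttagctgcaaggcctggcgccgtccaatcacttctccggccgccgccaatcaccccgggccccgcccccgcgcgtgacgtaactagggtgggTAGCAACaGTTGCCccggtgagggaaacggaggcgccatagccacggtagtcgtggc
RFX7 window 1, chr15:56245033-56245332 (minus strand): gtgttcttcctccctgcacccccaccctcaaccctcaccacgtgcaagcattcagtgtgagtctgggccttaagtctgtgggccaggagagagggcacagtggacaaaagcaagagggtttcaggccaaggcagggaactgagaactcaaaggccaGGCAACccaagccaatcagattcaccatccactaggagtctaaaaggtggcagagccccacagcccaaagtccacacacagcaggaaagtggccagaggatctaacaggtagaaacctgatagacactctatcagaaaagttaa

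The RFX5 gene spans chr1:151340640-151347252 and is the shortest of the family at 6613 bp. The DMSO interval lay at chr1:151347212-151347458 and was 247 bp wide. After Nutlin-3a the interval lay at chr1:151346824-151347732 and was 909 bp wide. The DMSO interval was contained whole in the Nutlin-3a interval, which extended 274 bp further upstream and 388 bp further into the gene. Midpoints of the intervals were 57 bp apart, at 83 bp and 26 bp upstream of the outermost RFX5 start site for DMSO and Nutlin-3a.

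The intervals differed in how many RFX5 start sites they covered. The outermost start site, at position 151347252, was inside both intervals. The other start sites lay 253 and 396 bp downstream of it, at positions 151346999 and 151346856, and were inside the Nutlin-3a interval only. Of promoter window 1, 247 of 300 bases were covered by the DMSO interval and all 300 by the Nutlin-3a interval. Window 2 was covered by 38 bases after DMSO and 300 after Nutlin-3a, and window 3 by 0 and 283 bases. Interval width can move with sequencing depth, which is unknown here, so the wider coverage after Nutlin-3a and a difference in depth cannot be told apart.

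**Figure D1:**
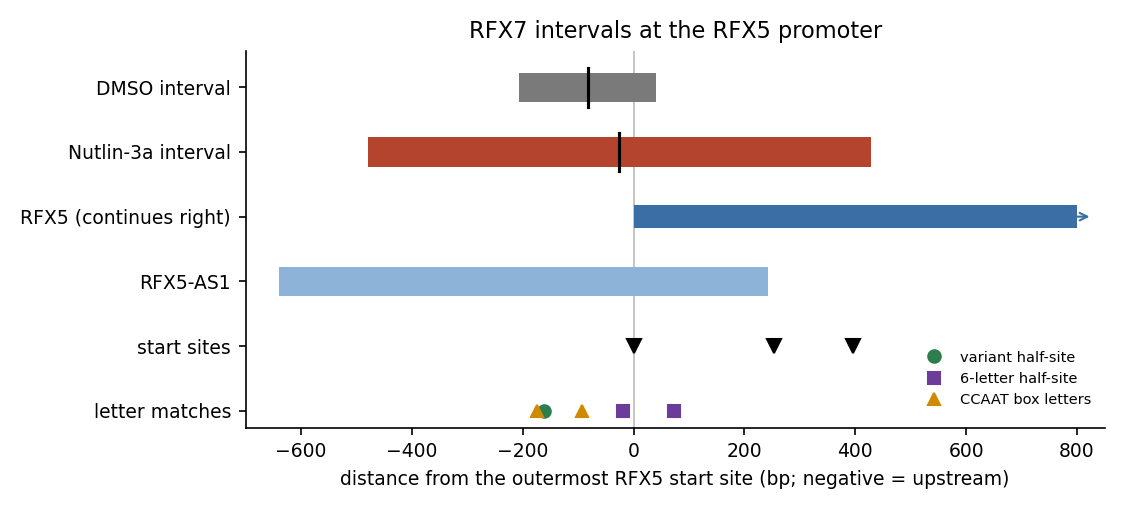
Map of the RFX5 promoter in bp from the outermost RFX5 start site (negative is upstream). Bars are the DMSO and Nutlin-3a intervals with their midpoints as black ticks, the start of RFX5 and the antisense gene RFX5-AS1, triangles pointing down are the 3 start sites, and the lowest line holds letter matches in the promoter windows. The 247 bp DMSO interval sits inside the 909 bp Nutlin-3a interval and covers the first start site alone.

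An antisense gene overlaps this promoter. RFX5-AS1, a long non-coding RNA gene at chr1:151347010-151347891, overlapped all 247 bp of the DMSO interval and 723 of the 909 bp of the Nutlin-3a interval, whereas RFX5 itself overlapped 41 and 429 bp. An interval over both genes cannot be given to one of them from its position. RFX5 was the only protein-coding gene within 10 kb. The next ones were SELENBP1, 16969 bp from the DMSO midpoint and 17026 bp from the Nutlin-3a midpoint, and PI4KB, 19620 and 19563 bp away.

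Within its own list, the RFX5 interval ranked high under both treatments. By −log10 q, the significance value of the authors' peak caller, it ranked 11 of 304 after Nutlin-3a, at 45.3 against a list median of 10.2. After DMSO it shared the mean rank of 22.5 of 213 with the other intervals of the same −log10 q, 4 in all, at 4.54 against a list median of 2.49. Fold enrichment, as deposited by the authors, was 9.68 at RFX5 after Nutlin-3a (list range 2.42 to 12.03) and 3.85 after DMSO (2.12 to 6.68). By fold enrichment the interval ranked 13 and 16.5. Values of the DMSO and Nutlin-3a lists depend on the depth of each and were compared only by rank within a list.

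**Figure D2:**
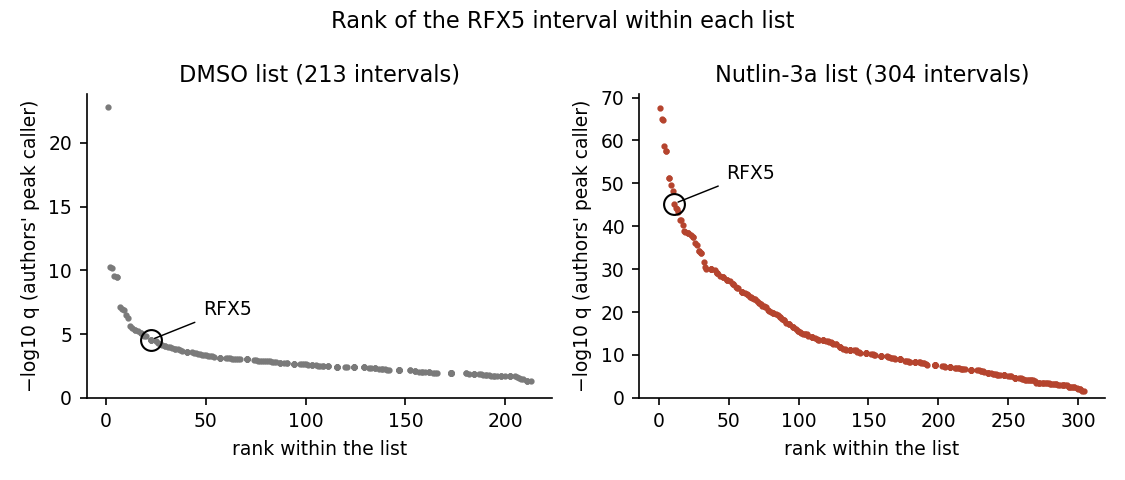
Every interval of the DMSO list (left) and the Nutlin-3a list (right) by its rank within the list (x axis) and its −log10 q (y axis), with RFX5 circled. RFX5 stands at rank 22.5 of 213 on the left and rank 11 of 304 on the right.

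RFX5 was 1 of 22 sites at which intervals of both lists overlapped by at least 1 bp. Among them it was number 6 by −log10 q after Nutlin-3a and tied with others for numbers 14 to 17 after DMSO. Its Nutlin-3a interval was 3.68 times as wide as its DMSO interval, while the ratio over the 22 sites ranged from 1.73 to 8.99 with a median of 4.27. RFX5 was thus number 17 by the widening, number 9 by DMSO width and number 15 by Nutlin-3a width. The shift of 57 bp between its midpoints was the sixth smallest. In none of these measures was RFX5 the first or the last of the 22 sites.

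**Figure D3:**
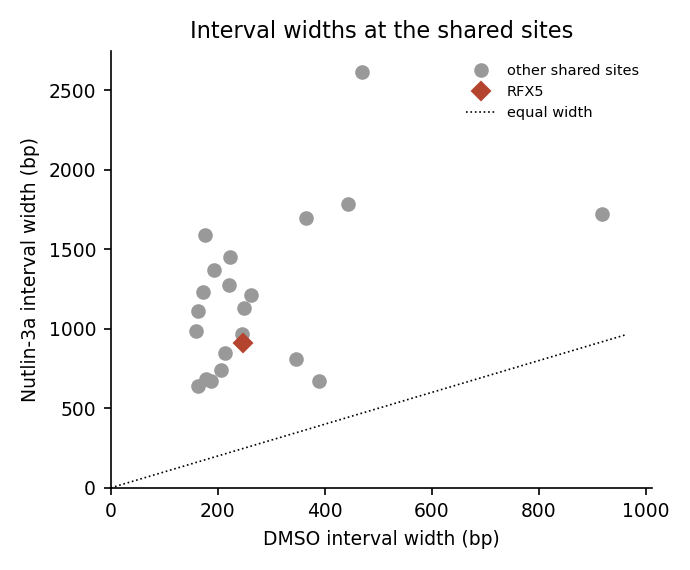
Width in bp of the DMSO interval (x axis) and the Nutlin-3a interval (y axis) at the 22 shared sites, with RFX5 as a diamond and a dotted line at equal width. All sites lie above the line, and RFX5, at 247 and 909 bp, lies among the others.

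Position at a start site was common in the Nutlin-3a list and rare in the DMSO list. Of the Nutlin-3a midpoints, 134 of 304 (44.1%) were within 1 kb of a start site of the RefSeq promoter table, at a median distance of 152.5 bp. In the DMSO list this held for 10 of 213 (4.69%), at a median of 135.25 bp. The RFX5 midpoints, at 26 and 83 bp, were closer to a start site than these medians. Upstream midpoints, as at RFX5, made up 77 of the 134 and 8 of the 10.

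RFX1, RFX2 and RFX3 had no interval within 10 kb in either list. RFX1, at chr19:13961530-14006816, was 1.17 Mb from the nearest Nutlin-3a midpoint, that of an interval 460.5 bp from an end of JUNB, and 4.15 Mb from the nearest DMSO midpoint, inside PIK3R2. RFX2, at chr19:5993164-6110500, was 3.93 Mb from a Nutlin-3a midpoint near MOB3A and 12.05 Mb from the same DMSO midpoint. RFX3 spans 307705 bp at chr9:3218297-3526001, the longest gene of the family, and still had its nearest Nutlin-3a midpoint 0.937 Mb away, near SMARCA2, and its nearest DMSO midpoint 24.9 Mb away. Each of these genes was thus at least 0.937 Mb from the closest interval of either list. Protein-coding genes on chromosomes with an interval give the scale. In the Nutlin-3a list, 29.6%, 57.8% and 25.5% of them were closer to an interval than RFX1, RFX2 and RFX3. In the DMSO list these shares were 31.8%, 61.9% and 79.4%.

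RFX4, RFX6 and RFX8 had no interval within 10 kb either. By the same measure, 67.4%, 18.7% and 89.2% of genes were closer than RFX4, RFX6 and RFX8 in the Nutlin-3a list. In the DMSO list these shares were 96.0%, 40.9% and 76.8%. RFX4, at chr12:106583004-106762803, was 5.78 Mb from the nearest Nutlin-3a midpoint and 64.8 Mb from the nearest DMSO midpoint, the largest distance in the family. RFX6, at chr6:116877242-116932161, lay 0.597 Mb from a Nutlin-3a midpoint that is inside DSE and beside an end of TSPYL1, which encodes a nucleosome assembly protein relative, and 6.001 Mb from a DMSO midpoint. RFX8, at chr2:101397359-101475112, was 14.3 and 21.8 Mb from Nutlin-3a and DMSO midpoints. Chromosome 12, which holds RFX4, had 28 Nutlin-3a intervals, as many as chromosome 1, which holds RFX5.

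The partners of RFX5 in the RFX complex had no interval either. RFXANK, the ankyrin-repeat subunit, at chr19:19192258-19201866, was 0.184 Mb from the nearest Nutlin-3a midpoint. That interval lay 80.5 bp from an end of GATAD2A, a subunit of a chromatin remodelling complex, and ranked 250 of 304. From the nearest DMSO midpoint RFXANK was 1.03 Mb away. RFXAP, the subunit that binds both RFX5 and RFXANK, at chr13:36819222-36829104, was 7.61 Mb from the nearest midpoint of both lists, a shared site inside TSC22D1. Of the 3 subunit genes of the complex, RFX5 alone carried an interval.

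RFX7 did not carry an interval at its own gene. RFX7 lies at chr15:56087280-56245082 and spans 157803 bp. The DMSO list held 0 intervals on chromosome 15. The Nutlin-3a list held 9, the nearest of them 3.41 Mb from RFX7, inside the gene ATOSA, with rank 266.5 of 304. Absence from these lists says only that the peak caller listed no interval there at this unknown depth.

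Distances of the family genes lay on both sides of the median over all protein-coding genes. The median distance over the family was 2.288 Mb in the Nutlin-3a list (10 genes) and 7.61 Mb in the DMSO list (9 genes, without RFX7). Over all protein-coding genes on chromosomes with an interval it was 2.88 Mb and 8.17 Mb. In the Nutlin-3a list 5 family genes were farther than the median gene, and in the DMSO list 4 were. Family genes are long, with a median of 66337 bp against 24115 bp over all protein-coding genes, which gives their windows more room for an interval.

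**Figure D4:**
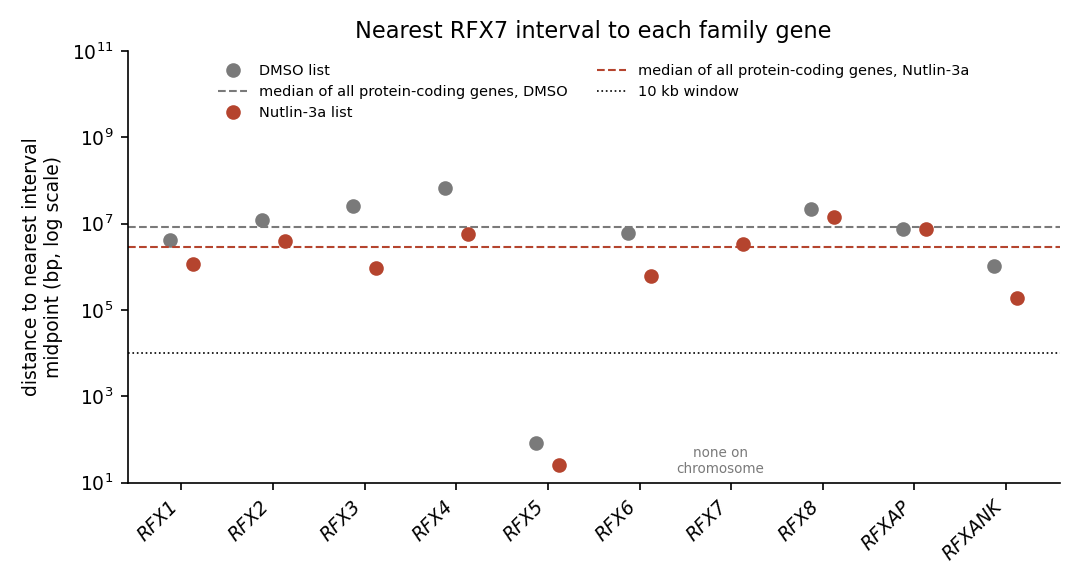
Distance in bp from each family gene to the nearest interval midpoint (y axis, log scale; points for the DMSO and Nutlin-3a lists), with dashed lines at the median of all protein-coding genes and a dotted line at the 10 kb limit. RFX5 alone lies under the limit, at 83 and 26 bp, and RFX7 has no DMSO point because chromosome 15 held none.

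MHC genes, some of them known targets of the RFX5 complex, were then counted together with its partners. The 25 genes comprised 11 MHC class II genes with CD74 and CIITA, 6 class I genes with B2M and NLRC5, and NFYA, NFYB, NFYC and CREB1. Of the 25, 0 had an interval within 10 kb in either list, which allows a share of up to 12% by counting alone. With 0.319% of all protein-coding genes called in the DMSO list and 1.33% in the Nutlin-3a list, a count of 0 among 25 is near the background and no result about these genes. All 11 class II genes had the same nearest Nutlin-3a interval, at chr6:32971444-32972208, inside BRD2, a bromodomain gene set among them. That interval ranked 40 of 304 and was 18.7 kb from HLA-DMA, 30.8 kb from HLA-DMB and 32.4 kb from HLA-DOA, which encode parts of the proteins that control peptide loading. HLA-DRA, the best known target of the RFX5 complex, was 527 kb away from it. The nearest class I gene was HLA-F, 10531.5 bp from the midpoint of a 70 bp interval that ranked 300 of 304. CIITA was 1.70 Mb and B2M 7.93 Mb from a Nutlin-3a midpoint. In the DMSO list the smallest distance of any of these genes was 1.03 Mb, for CREB1. Within 50 kb, 4 of the 25 genes had a Nutlin-3a interval, against 2.94% of all protein-coding genes (589 of 20037), and 3 of these 4 were the neighbours of BRD2 named above. Some HLA genes have near-identical copies, and how reads that fit several copies were counted is not given in the sources used here.

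Letters of RFX half-sites were counted in the promoter windows, both strands included. The table of 35116 windows of 300 bases matched 7 of the 10 family genes with 15 windows, and RFX2, RFX6 and RFX8 were not matched. Windows of one gene can overlap, and 7-letter matches contain the shorter ones, so counts are not independent. GTTGCCA or GTTGCTA was present in 3 of the 15 family windows, 20% (95% Wilson interval 7.05 to 45.2%), namely in RFX1 window 1 and in RFX4 windows 1 and 2. Across all windows the share was 6.75% (2371 of 35116), and across the 146 windows that overlap a Nutlin-3a interval it was 26.7% (39 of 146). Across the 13 windows that overlap a DMSO interval it was 7.69% (1 of 13, 95% Wilson interval 1.37 to 33.3%). Taken singly, GTTGCTA was in 19.9% of the windows overlapping a Nutlin-3a interval against 2.85% of all windows. GTTGCCA was in 6.85% of them (95% Wilson interval 3.76 to 12.1%) against 4.08% of all windows. None of the RFX5 windows held GTTGCCA or GTTGCTA.

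RFX5 window 1 held GTTACCA, at bases 87 to 93 counted from the 5′ end of the window. This variant was present in 2.14% of all windows and 2.05% of those overlapping a Nutlin-3a interval (3 of 146). Of the 13 windows overlapping a DMSO interval, 1 held it. That window was RFX5 window 1 itself, which was also among the 3, so these shares are not independent of RFX5. The RFX5 match lay inside both RFX5 intervals, 78 bp from the DMSO midpoint and 135 bp from the Nutlin-3a midpoint. The 6-letter GTTGCT, a search added after the windows had been seen, was present at bases 230 to 235 of window 1 on the opposite strand, 7.5 bp from the Nutlin-3a midpoint and 64.5 bp from the DMSO midpoint. It recurred at bases 69 to 74 of window 2, inside the Nutlin-3a interval and outside the DMSO interval. GTTGCT was held by 12.8% of all windows, 39.0% of those overlapping a Nutlin-3a interval (57 of 146) and 9 of 13 overlapping a DMSO interval. RFX5 windows 1 and 2 were among the 57 and among the 9. These counts include windows with GTTGCTA, which the RFX5 windows lack. GTTGCTA was held by 2.85% of all windows, 29 of the 146 and 1 of the 13. In the family, GTTGCT was held by 5 of 15 windows. These were RFX5 windows 1 and 2 and, without an interval, RFX1 window 1, RFX4 window 1 and RFXANK window 3. The RFXANK match was at bases 256 to 261, just after the start site.

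Among the 15 family windows searched, the inverted pair of arms was present in RFX4 alone, without an interval. GTTGCC followed after 0 to 3 bases by its reverse complement was present in 58 of all 35116 windows, 0.165%. RFX4 window 2 was one of them, with the pair starting at base 240 and separated by 2 bases. Of the 58 windows, 0 overlapped an interval of either list, which allows a share of up to 5.17% for each list. Over all windows the share was 0.416% for the Nutlin-3a list and 0.037% for the DMSO list, so a count of 0 among 58 is no result about these windows. Among the 146 windows overlapping a Nutlin-3a interval, 0 held the pair, which allows up to 2.05%. RFX1 window 1 held GTTGCTA on the opposite strand at bases 244 to 250 and GTTGCC at bases 252 to 257. In RFX7 window 1, GTTGCC was present at bases 157 to 162 on the opposite strand. GTTGCC was held by 12.2% of all windows, 28.1% of those overlapping a Nutlin-3a interval (41 of 146) and 2 of the 13 overlapping a DMSO interval.

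CCAAT, the letters read by NF-Y, was also searched after the windows had been seen. RFX5 window 1 held it at bases 74 to 78 and 156 to 160, inside both intervals. The second match was 10 bp from the DMSO midpoint and 67 bp from the Nutlin-3a midpoint. CCAAT was present in 34.6% of all windows, in 73.3% of those overlapping a Nutlin-3a interval (107 of 146) and in 11 of the 13 overlapping a DMSO interval. In the family, RFX1 window 1, RFX3 window 2 and RFX7 window 1 held it as well, without an interval, so that 4 of 15 family windows had it. A letter match is a description of the window and was not tested as a site of binding.

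**Figure D5:**
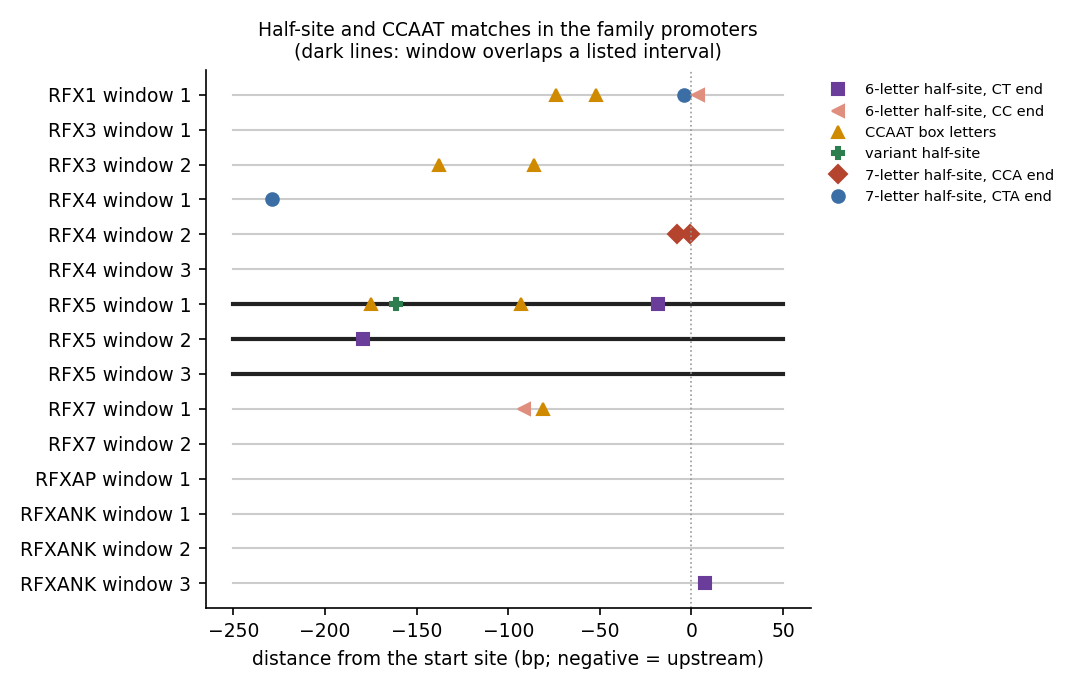
Position of half-site and CCAAT matches in the 15 family promoter windows, in bp from each start site (x axis), 1 line per window, with dark lines for the windows that overlap a listed interval. The RFX5 windows are the dark ones, and the paired 7-letter matches at the start site of RFX4 window 2 form the palindrome.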

How the data were processed

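The files are 2 lists of intervals in narrowPeak layout, 1 for the RFX7 immunoprecipitations after each treatment, with rows named as merged peaks. The submitters' processing notes name MACS2 2.2.7.1, bedtools 2.29.2, Trimmomatic 0.39, SAMtools 1.10 and build hg38; settings and the way replicates were merged are not given in the sources used here. Each row carries a fold enrichment (a ratio) and a −log10 q, both deposited by the authors from their peak caller, beside a −log10 p and a whole-number score deposited by the authors, which were not used. The summit column held no position, so midpoints were taken. Depth is unknown.

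Intervals were set against RefSeq GRCh38.p14 genes on chromosomes 1 to 22, X and Y with Python 3.11.15 and pandas 2.3.3. Half-site letters were searched in RefSeq promoter windows of GRCh38.p14. The counting and letter search were tested on simulated data. All family genes are named, with the nearest interval of each, and genes of the MHC list by their distance. The members and lists were chosen with earlier results of these data known. Input samples and protein sequences were not analysed here, and no test between treatments was possible. Wilson intervals and limits at a count of 0 cover counting error only. Alternatives changed the window, the part of the interval counted, the −log10 q minimum, the joining of neighbours, the ranking column, the overlap rule and the letters.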

Additional observations from a re-analysis of the deposited data

How the results depend on the processing

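For 10 results, 46 values were recomputed, 4 of them under alternatives chosen after seeing the data. Of these, 37 kept the count, moved the median distance by under 1%, or stayed within the Wilson interval of the reported share; the other 9 follow. Counting only midpoints inside a gene left 0 family genes in either list, since both RFX5 midpoints are upstream of it. A −log10 q of at least 10 left 0 family genes in the DMSO list, where RFX5 has 4.54. Within 50 kb, 4 genes of the MHC list had a Nutlin-3a interval, against 2.94% of all protein-coding genes; these were HLA-F, HLA-DMA, HLA-DMB and HLA-DOA, and the last 3 share the interval in BRD2. By fold enrichment, RFX5 ranked 16.5 after DMSO and 13 after Nutlin-3a. Requiring 50% of both intervals to overlap left 0 shared family sites, because the overlap is 27.2% of the Nutlin-3a interval. The inverted pair of GTTGCC and GTTACCA alone were each found in 6.67% of family windows. No paired analysis was possible because the replicates were merged within the deposited lists and rows carry no replicate number, and leaving out single replicates was not run for the same reason.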
